A study of Mus musculus with 12 samples.

Results

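The Hsd3b genes encode 3-beta-hydroxysteroid dehydrogenases, and 6 of the 54232 gene IDs in the count table carry the GENCODE M21 names Hsd3b1 to Hsd3b6. They were chosen by name, with the difference between alcohol-fed and control livers already known, since Hsd3b5 has the largest fall. Their values in that contrast are therefore given as a description and were not tested. The RNA came from whole livers of male C57BL6/J mice in an intragastric model of alcohol-associated steatohepatitis, with 1 library per mouse. All mice ate a solid Western diet, rich in cholesterol and saturated fat, beside liquid feeding into the stomach, after 2 weeks on that solid diet or on regular chow. The 7 alcohol-fed mice (AF) received ethanol in a high-fat liquid diet, raised to 27 g/kg/day over 8 weeks, with a weekly binge of 5 g/kg. The 5 pair-fed controls (PF) received an isocaloric high-fat liquid diet for 8 weeks, and what they received in place of the binge is not stated. The labels give 8 weeks as the age of both groups. This cannot be the age at sampling, since 2 weeks of solid diet and 8 weeks of liquid feeding came before. Both groups thus lived on a high-fat regimen, so neither stands for a liver on normal chow, and no female liver was measured.

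Enzymes of this family act at the 3-beta position of the steroid ring. The oxidising forms use NAD+ to turn pregnenolone into progesterone and dehydroepiandrosterone into androstenedione, steps on the way to the steroid hormones of adrenal gland and gonads. Hsd3b1 is the form of the adrenal gland and gonads, and Hsd3b6 is known from the placenta, the adrenal zona glomerulosa and Leydig cells. Hsd3b2 and Hsd3b3 are the forms of liver and kidney. Hsd3b4 and Hsd3b5 encode enzymes that work in the opposite direction, as NADPH-dependent reductases of 3-ketosteroids, in kidney and in liver. Hsd3b5 is known in mice as a gene of the adult male liver, where it depends on the pulsed release of growth hormone.

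The 6 genes lie in 1 cluster on the minus strand of mouse chromosome 3, from 98499071 to 98859794 (GRCm38). In order of position they are Hsd3b4 (ENSMUSG00000095143), Hsd3b5 (ENSMUSG00000038092), Hsd3b2 (ENSMUSG00000063730), Hsd3b3 (ENSMUSG00000062410), Hsd3b6 (ENSMUSG00000027869) and Hsd3b1 (ENSMUSG00000027871). Hsd3b4, Hsd3b5, Hsd3b2 and part of Hsd3b3 lie inside Zfp697, a zinc finger gene of the plus strand. No exonic base of Hsd3b5 is shared with Zfp697, against 99 of 3695 for Hsd3b2 and 281 of 6396 for Hsd3b3. The 3 members with appreciable reads were Hsd3b5, Hsd3b3 and Hsd3b2, and the 250 bases before the RefSeq start of each (GRCm38.p6, minus strand) are given here because these genes carried nearly all reads of the family. Capitals in the first 2 mark bases that are identical in the local alignment of Hsd3b5 with Hsd3b3.
Hsd3b5, chr3:98645535-98645784: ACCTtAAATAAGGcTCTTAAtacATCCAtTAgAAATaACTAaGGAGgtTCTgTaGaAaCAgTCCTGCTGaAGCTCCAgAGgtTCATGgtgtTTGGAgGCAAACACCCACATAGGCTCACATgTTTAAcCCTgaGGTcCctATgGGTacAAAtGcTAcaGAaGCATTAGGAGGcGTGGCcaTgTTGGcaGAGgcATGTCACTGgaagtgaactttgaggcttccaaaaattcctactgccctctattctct
Hsd3b3, chr3:98763129-98763378: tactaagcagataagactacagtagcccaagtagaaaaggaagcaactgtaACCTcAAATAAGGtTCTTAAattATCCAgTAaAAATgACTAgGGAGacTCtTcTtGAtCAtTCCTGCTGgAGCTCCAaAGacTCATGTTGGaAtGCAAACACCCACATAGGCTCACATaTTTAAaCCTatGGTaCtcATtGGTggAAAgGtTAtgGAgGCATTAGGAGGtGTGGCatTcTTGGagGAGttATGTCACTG
Hsd3b2, chr3:98724544-98724793: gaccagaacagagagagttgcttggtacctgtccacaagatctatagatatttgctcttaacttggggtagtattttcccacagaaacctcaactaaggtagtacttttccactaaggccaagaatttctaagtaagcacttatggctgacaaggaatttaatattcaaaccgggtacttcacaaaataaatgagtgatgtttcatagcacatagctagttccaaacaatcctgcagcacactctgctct

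Of 197 aligned bases, 154 (78.2%) were identical between the Hsd3b5 and Hsd3b3 windows, over positions -250 to -49 of Hsd3b5 and -199 to -1 of Hsd3b3. Hsd3b2, the neighbour of both, shared only 31 aligned bases with Hsd3b5 and 15 with Hsd3b3. The likeness of Hsd3b5 and Hsd3b3 upstream thus ran opposite to that of their transcripts, where Hsd3b3 was 93.4% identical to Hsd3b2 and 80.8% identical to Hsd3b5. RefSeq places the start of Hsd3b5 15282 bases upstream of the GENCODE M21 start at 98630252, so the window shown for it depends on the annotation. RefSeq also gives Hsd3b3 another start, 718 bases downstream, whose window was 99.6% identical to the one shown over 249 bases.

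The windows of all 6 members, 8 in total, were searched on both strands for 6 motifs. TTCNNNGAA, the letters bound by STAT5, the factor that carries the growth hormone signal, occurred in 1 window, that of Hsd3b1, as TTCTCAGAA. The same letters occurred in 7.02% of 32851 mouse promoter windows of the same length. CCAAT was found before Hsd3b1, Hsd3b3 and Hsd3b4, and in 33.8% of all windows. TATAAA (12.4% of all windows), the forkhead letters TGTTTAC (3.17%), the nuclear receptor half-site AGGTCA (14%) and the HNF1 palindrome (0.00913%) occurred in no window of a member. No match overlapped another. None of the 6 motifs was found in the windows of Hsd3b5, Hsd3b2 or Hsd3b6, which says only that these letters were not in these 250 bases.

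Library totals were 24129900 to 28594027 counts for PF, and for AF they were 25099033 to 30578639. Values below are CPM, reads scaled to a common library size with the TMM factors of edgeR, which offset differences in RNA composition. Intervals and floors from counts cover counting error only and leave out variation between livers. The reads carried no molecular identifiers, so even the counting error may be understated. On the first principal component of all tested genes (59.9% of the variance) PF livers lay between -73.3 and -52.5 and AF livers between -7.73 and 83.9, with AF replicate 6 nearest to PF. Hepatocyte markers identified the tissue: the summed level of 8 markers was 89846 to 133256 CPM in PF and 47859 to 96693 CPM in AF livers, and albumin was the most abundant. Of 14168 genes tested, 39.8% passed an adjusted p of 0.05 in either direction and 17.8% passed as lower in AF livers.

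Hsd3b5 transcripts were abundant in control livers and nearly absent in alcohol-fed livers. In the 5 PF livers Hsd3b5 stood at 153, 186, 45.8, 85 and 98.3 CPM, in order of replicate number, from 1100 to 4060 reads each. In the 7 AF livers it had 0 reads in replicates 1, 2, 3 and 5, 1 read in replicate 4, 4 reads in replicate 6 and 2 reads in replicate 7. The highest AF value, 0.149 CPM, was far below the lowest PF value, so the groups did not overlap. In bulk liver, fewer cells with the transcript and less of it per cell cannot be told apart. All 7 AF livers lay below all 5 PF livers, as they did for 9.49% of all tested genes, a share from which nothing is read here because this contrast chose the gene.

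The mean level of Hsd3b5 was 114 ± 55.7 CPM in PF (SD, n = 5) and 0.0358 ± 0.0565 CPM in AF livers (SD, n = 7). Summed over livers, 12602 reads in PF stood against 7 in AF, a ratio of scaled levels of 3480 (95% exact interval of counting error 1689 to 8658). The edgeR log2 fold change was -11.60 (SE 0.541), a fitted value that depends on the prior count given to genes near 0. Without AF replicate 6, which held 4 of the 7 AF reads, it was -12.47. A count of 3 corresponds to between 0.0778 and 0.115 CPM in the AF libraries, so a level up to that floor was not detectable in the 4 AF livers with 0 reads.

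**Figure D1:**
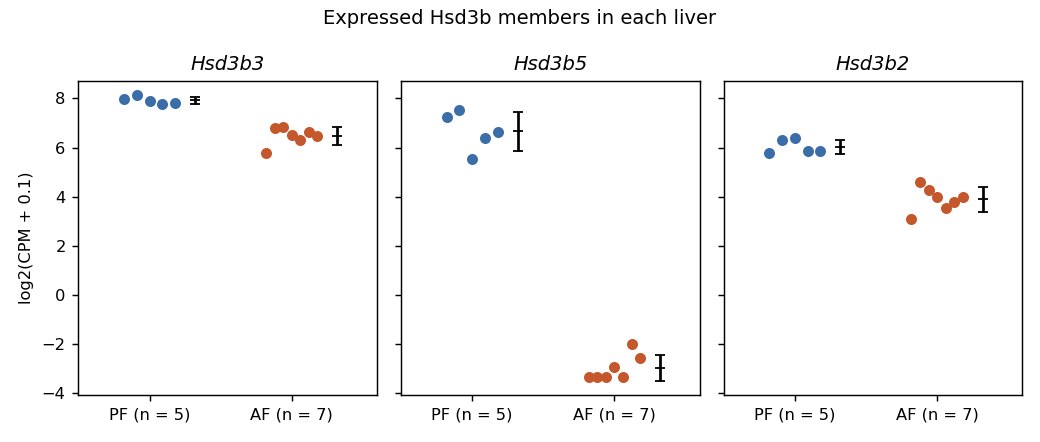
Levels of Hsd3b3, Hsd3b5 and Hsd3b2 in each liver on a log2(CPM + 0.1) axis, with blue points for PF (n = 5) and orange points for AF livers (n = 7). Black marks give the mean and SD of each group. The groups do not overlap for any of the 3 genes, and the 4 AF livers with 0 Hsd3b5 reads sit at the bottom of the middle panel.

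Hsd3b3, the member with the most reads, was lower in every AF liver than in any PF liver and stayed well expressed in both groups. It stood at 254, 280, 237, 222 and 228 CPM in PF livers. In AF livers 1 to 7 it stood at 55.4, 111, 116, 90.4, 78.4, 99.8 and 87.9 CPM. The highest AF liver, replicate 3, lay well below the lowest PF liver, replicate 4, and AF replicate 1 was the lowest of all. The mean level was 244 ± 23.4 CPM in PF (SD, n = 5) and 91.3 ± 20.6 CPM in AF livers (SD, n = 7), with a log2 fold change of -1.42 (SE 0.155), or 37.4% of the PF level.

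Hsd3b2 was also lower in AF livers, by a larger factor than Hsd3b3. Its level was 54.5, 79.6, 83.5, 58.5 and 58.7 CPM in PF livers. In AF livers 1 to 7 the level of Hsd3b2 was 8.37, 24.2, 19.4, 15.7, 11.4, 13.7 and 15.8 CPM. AF replicate 1 was again the lowest, and the groups did not overlap. The mean was 66.9 ± 13.5 CPM in PF (SD, n = 5) and 15.5 ± 5.2 CPM in AF livers (SD, n = 7). This is a log2 fold change of -2.11 (SE 0.219), or 23.1% of the PF level. A log2 fold change at or below that of Hsd3b2 was found for 1.34% of all genes tested and one at or below that of Hsd3b3 for 2.79%, which describes where the members lay and tests nothing.

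The other 3 members did not pass the filter on low counts. Hsd3b4 had 0 reads in all 12 livers, but none of the 75-base windows of its transcripts was found in it alone. Its transcript was 100% identical to Gm10681 and 99.6% identical to Gm4450 over the aligned bases, and both of these also had 0 reads. If reads with several best places were dropped, as was not stated, these 3 genes would show 0 at any level, so their 0 says nothing of expression. Hsd3b6 had 1 read in each of PF replicates 1 and 2 and in AF replicate 4, and 91.4% of its windows were its own. Hsd3b1 had 0 reads in PF livers, 1 read in AF replicate 3 and 10 reads in AF replicate 5, with 98.5% of its windows its own. Neither exceeded 0.285 CPM in any liver.

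Of the 3 expressed members, 88.3% of the 75-base windows of Hsd3b5, 81.7% of those of Hsd3b2 and 76.4% of those of Hsd3b3 were found in no other gene. Hsd3b2 and Hsd3b3 shared most with each other and with Hsd3b6, and Hsd3b5 shared most with Gm10681, Hsd3b4 and Gm4450. Counts of Hsd3b2 and Hsd3b3 could therefore be split or lost to a degree that depends on the authors' setting for reads with several matches, which is not stated. Zfp697, whose exons overlap theirs on the opposite strand, held 113 reads over all PF and 303 over all AF livers, against 27677 and 19668 for Hsd3b3. The strand setting of the counts is not stated, and its part was not tested.

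The total output of the family fell with its members. Reads of all 6 genes summed to 366 to 546 CPM in PF (median 385) and to 63.7 to 136 CPM in AF livers (median 106). The make-up of those reads differed too. Hsd3b3 took 58.2 ± 5.16% of the family's reads in PF (SD, n = 5; range 51.4 to 64.7%) and 85.6 ± 1.91% in AF livers (SD, n = 7; range 82.1 to 87.8%). Hsd3b5 took 12.5 to 34% of the reads in PF and at most 0.131% in AF livers. The share of Hsd3b2 was 16.1 ± 4.08% in PF (SD, n = 5) and 14.3 ± 1.97% in AF livers (SD, n = 7), with overlapping ranges. Per read of Hsd3b2 there were 3.74 ± 0.656 reads of Hsd3b3 in PF (SD, n = 5) and 6.1 ± 0.907 in AF livers (SD, n = 7), and the ranges, 2.84 to 4.66 and 4.59 to 7.26, overlapped slightly. These shares are of reads and are not corrected for transcript length.

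**Figure D2:**
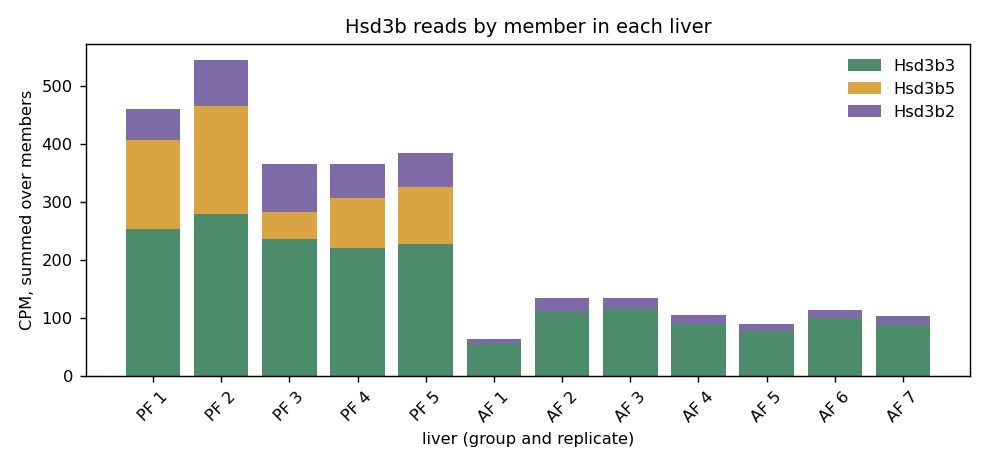
Stacked bars of the CPM of Hsd3b3, Hsd3b5 and Hsd3b2 in each of the 12 livers, on a linear axis from 0. The PF bars reach 366 to 546 CPM with a visible Hsd3b5 segment, while the AF bars reach 63.7 to 136 CPM and consist of Hsd3b3 and Hsd3b2 alone to the eye.

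Per kilobase of exon union, mean levels in PF livers ran in the order Hsd3b5, Hsd3b3, Hsd3b2. The first 2 places depended on the length used. With the union of annotated exons, the level was 73.3 ± 36 CPM per kb for Hsd3b5, 38.2 ± 3.66 for Hsd3b3 and 18.1 ± 3.65 for Hsd3b2 (SD, n = 5 each). Hsd3b5 was above Hsd3b3 in 4 of 5 PF livers, with a mean log2 ratio of 0.79 (SD 0.703, n = 5), barely more than its spread over livers. The exon union of Hsd3b3, 6396 bases, exceeds its median coding transcript of 1443 bases several times over. Its longest coding transcript has 1533 bases. With the median coding transcript, a choice made after seeing the data, Hsd3b3 stood at 169 ± 16.2 CPM per kb (SD, n = 5) and above Hsd3b5 in all 5 PF livers, with a log2 ratio of Hsd3b5 to Hsd3b3 of -1.36. With that length Hsd3b5 was above Hsd3b2 in 4 of 5 PF livers, with a lowest log2 ratio of -0.66.

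Hsd3b3 was above Hsd3b2 per kilobase in every liver under each of the 3 lengths tried. With the exon union its mean log2 ratio to Hsd3b2 was 1.09 in PF (SD 0.258, n = 5) and 1.80 in AF livers (SD 0.223, n = 7). In AF livers the level per kb of exon union was 14.3 ± 3.23 CPM for Hsd3b3 and 4.2 ± 1.41 CPM for Hsd3b2 (SD, n = 7 each). Hsd3b5 was last there, with at most 0.0961 CPM per kb in any AF liver.

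Hsd3b5 varied more among control livers than its relatives did. Its highest PF liver was 4.05 times its lowest, against 1.53 times for Hsd3b2 and 1.26 times for Hsd3b3. On the log2 scale the SD of Hsd3b5 over PF livers was 0.789, larger than that of 99.1% of 1018 genes with a like PF level, whose median SD was 0.133. The SD of Hsd3b2 (0.284) was larger than that of 88.6% of its like-level genes, and that of Hsd3b3 (0.135) lay at the middle, above 49.8%. Among AF livers the SD was 0.497 for Hsd3b2 and 0.36 for Hsd3b3, against medians of 0.226 for like-level genes.

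Hsd3b2 and Hsd3b3 varied together among AF livers, a spread the choice of genes did not use. Over the 7 AF livers Pearson's r of their log2 levels was 0.915 (exact permutation p = 0.00675, two-sided) and Spearman's rho was 0.821 (exact permutation p = 0.0341, n = 7). This was the only pair with enough reads in AF livers, so no adjustment for several pairs applied. Without AF replicates 1 and 2, the livers farthest from the median of Hsd3b2, r was 0.808 over 5 livers. Without AF replicate 1, the lowest AF liver for both genes and the farthest out on the first principal component (83.9), r was 0.825 (exact permutation p = 0.0472). How often other genes of like level correlate this strongly over these livers was not measured, so r is not read as particular to the family. Both genes were measured in the same libraries and share transcript sequence, and the part of either in r was not tested.

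**Figure D3:**
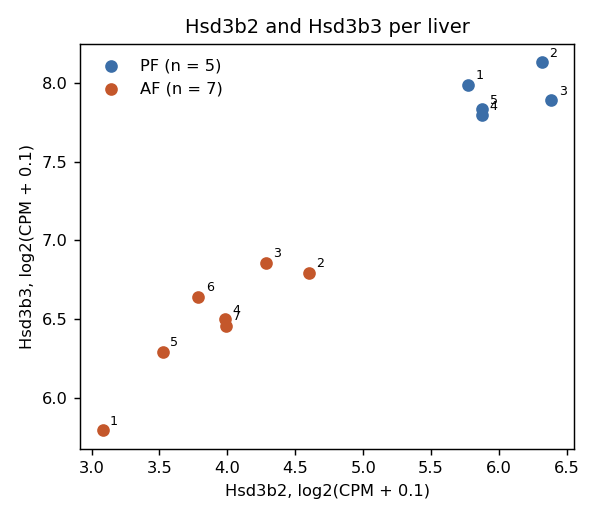
Level of Hsd3b3 against that of Hsd3b2 in each liver, both as log2(CPM + 0.1), with replicate numbers beside the points. The AF livers (orange, n = 7) run from replicate 1 at lower left to replicates 2 and 3 at upper right, apart from the PF livers (blue, n = 5).

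Markers of other cells moved with the groups, where 22% of all genes tested passed as higher in AF livers and 17.8% as lower. Of 5 Kupffer cell markers 4 passed as higher (summed level 573 to 778 CPM in PF, 776 to 2376 in AF). So did 4 of 5 stellate cell markers (180 to 466 CPM, 388 to 913 CPM). All 4 tested of 5 bile duct markers also passed as higher (3.25 to 5.33 CPM, 5.25 to 43.6 CPM), and Cftr was not tested. None of 5 neutrophil markers passed (45 to 737 CPM, 28.1 to 151 CPM). Of the 8 hepatocyte markers, Apoa1, Tat and Cps1 passed as lower and none as higher. Of 5 pericentral hepatocyte markers (12610 to 15845 CPM summed in PF, 1204 to 10247 in AF) 1 passed as lower, Glul (log2 fold change -1.77). Cyp2e1 (-1.62, edgeR adjusted p = 0.05) and Oat (-1.42, edgeR adjusted p = 0.0582) lay just short of passing, while Cyp1a2 (0.75) and Axin2 (0.16) did not fall. Of 5 periportal markers none passed (2215 to 4903 CPM, 951 to 3191 CPM). The part of these in the Hsd3b levels was not tested. Relative to albumin reads, a measure added after seeing the data, the log2 change was -10.98 (SE 0.557) for Hsd3b5 and -1.52 (SE 0.265) for Hsd3b2, with all 7 AF livers below all PF livers for both. For Hsd3b3 it was -0.81 (SE 0.181), with 6 of 7 AF livers below all PF livers. Albumin itself had a log2 fold change of -0.60 (edgeR adjusted p = 0.164), so falls relative to it are smaller by construction.

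Defining markers of the tissues known for Hsd3b1, Hsd3b4 and Hsd3b6 were at or near 0. Of 6 adrenal cortex markers Cyp11b1, Mc2r and Nr5a1 were at 0 in all livers, and their summed level was 1.93 to 3.63 CPM in PF and 0.855 to 2.54 CPM in AF livers. Of 4 Leydig cell markers, Insl3 and Lhcgr were at 0, and the summed level of 19.2 to 52.5 CPM in PF and 2.82 to 121 CPM in AF livers was nearly all Cyp17a1, a gene that mouse liver also expresses. The 5 kidney tubule markers summed to at most 0.917 CPM in any liver, with Slc12a1 at 0. The 4 pancreas markers summed to 7.75 to 16.2 CPM in PF and 7.39 to 12 CPM in AF livers.

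Of the genes related to the family outside the cluster, Nsdhl fell steeply while Hsd3b7 and Sdr42e1 did not pass the test. Nsdhl encodes the sterol dehydrogenase of cholesterol synthesis that works with removal of the methyl groups at carbon 4. Its level was 202 ± 24 CPM in PF (SD, n = 5) and 10.9 ± 1.76 CPM in AF livers (SD, n = 7), with a log2 fold change of -4.21 (SE 0.129, edgeR adjusted p = 5.08e-10) and all 7 AF livers below all PF livers. Hsd3b7, which acts on sterols early in bile acid synthesis, stood at 10.2 ± 1.67 CPM (SD, n = 5) and 9.59 ± 2.23 CPM (SD, n = 7). Its log2 fold change was -0.09 (95% interval -0.43 to 0.25, edgeR adjusted p = 0.711). Its exons overlap those of Gm49388 and 9430064I24Rik, and only 11.5% of the 75-base windows of its transcripts were found in no other gene. Its counts may therefore cover only part of its reads, so this value does not show that Hsd3b7 was unchanged. Sdr42e1 had a log2 fold change of -0.34 (SE 0.164, edgeR adjusted p = 0.114) and passed without AF replicate 2.

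The profile most like that of Hsd3b5 over the 12 livers was that of Slco1a1, which encodes an organic anion transporter of the male liver. Likeness was the root mean square difference of log2(CPM + 0.1), each gene centred on its own mean, and 11365 genes were ranked. The difference was 0.796 for Slco1a1, 1.3 for the serpin pseudogene Serpina4-ps1, 1.54 for the trefoil peptide gene Tff3, 1.9 for Serpina1e, of the alpha-1-antitrypsin family, and 1.96 for the nicotinic receptor subunit gene Chrna4. Slco1a1 stood at 263, 557, 126, 394 and 385 CPM in PF livers. In AF livers 1 to 7 it had 0, 4, 0, 1, 0, 18 and 9 reads. Replicates 4, 6 and 7, the AF livers with Hsd3b5 reads, also held Slco1a1 reads, as did replicate 2, and replicate 3 was the lowest PF liver for both genes. The log2 fold change of Slco1a1 was -11.13 (SE 0.707). It is given as a description, since the likeness rests mostly on the contrast of AF with PF livers that chose Hsd3b5.

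**Figure D4:**
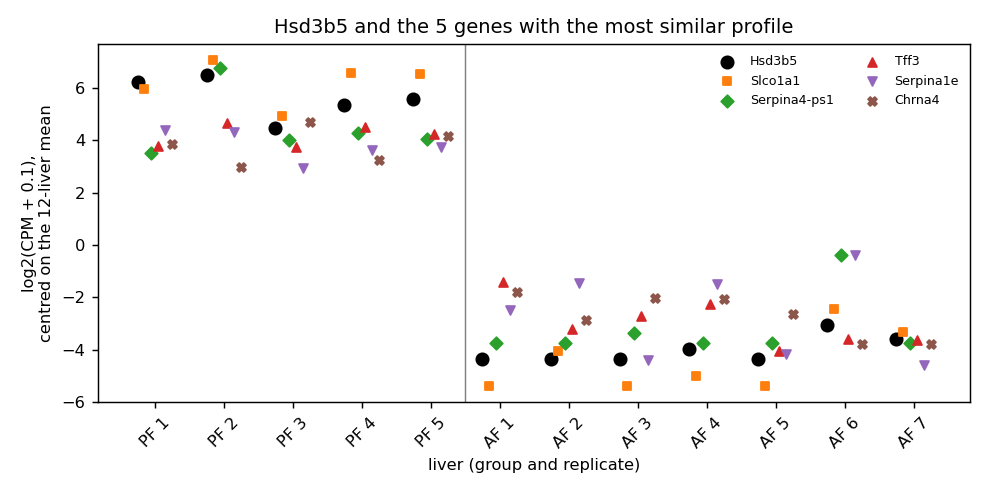
Level of Hsd3b5 (black circles) and of the 5 genes with the most similar profile in each of the 12 livers, as log2(CPM + 0.1) centred on the mean over livers. All 6 genes are above 0 in the 5 PF livers and below 0 in the 7 AF livers, and Slco1a1 lies closest to Hsd3b5.

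Of 21 male-biased liver genes, all tested, 16 passed as lower in AF livers (17.8% of all genes tested did), 1 as higher and 4 did not pass. Their median log2 fold change was -2.81 against 0.04 for all genes tested. Genes near 0 in AF, such as Slco1a1 (32 reads over all AF livers), entered the test through their PF reads and could hardly be called higher. With a filter at 1 count in any library, 16 genes passed as lower and 1 as higher. All 21 genes had already been tested, so that filter added none and does not lift this limit. Among all genes it gave 2258 calls as lower and 3079 as higher. Beside Slco1a1, the largest falls, among genes of the list whose log2 CPM averaged 1 or more, were those of Moxd1, Serpina1e and Elovl3, a fatty acid elongase. The mean of Serpina1e dropped from 8809 ± 3265 CPM in PF (SD, n = 5) to 155 ± 158 CPM in AF livers (SD, n = 7), and its fitted change was -5.83 on the log2 scale (SE 0.762, edgeR adjusted p = 0.00014). Elovl3 had a log2 fold change of -4.48 (SE 1.05, edgeR adjusted p = 0.00527). Moxd1 varied from 0.778 to 282 CPM among PF livers and overlapped AF livers (0 to 1.75 CPM). Moxd1 changed by -7.79 on the log2 scale (edgeR adjusted p = 0.000876), and it did not pass with limma-voom. Gstp2 was the 1 gene that passed as higher (log2 fold change 1.19, edgeR adjusted p = 0.0236), but not without PF replicate 3 or PF replicate 5, and Gstp1 had the smallest change (-0.62, edgeR adjusted p = 0.0672).

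Of 22 female-biased genes 14 were tested, 9 passed as higher (22% of all genes tested did), none as lower, and 5 did not pass. The median log2 fold change was 1.88, and 6 genes passed as higher with limma-voom. Genes near 0 in PF, such as Cyp2b13 (12 reads over all PF livers) and Cyp2a4 (51 reads), entered the test through their AF reads. Such genes could hardly be called lower, so the counts and the median partly reflect the filter. With a filter at 1 count in any library, 11 genes passed as higher and none as lower. That filter does not lift the limit either, since genes near 0 in PF could still hardly be called lower. Among all genes it gave 3079 calls as higher and 2258 as lower. Cyp2a4, a steroid hydroxylase of the cytochrome P450 family, rose from 0.434 ± 0.345 CPM in PF (SD, n = 5) to 895 ± 1002 CPM in AF livers (SD, n = 7), with a log2 fold change of 10.97 (SE 1.18, edgeR adjusted p = 3.5e-05). The P450 genes Cyp2b13 and Cyp2b9 rose by 8.93 (edgeR adjusted p = 6.63e-05) and 5.96 (edgeR adjusted p = 0.000186) on the log2 scale. Prom1, also expressed by bile duct cells, rose by 3.73 (edgeR adjusted p = 0.00604) but did not pass with limma-voom. Slc22a26 had the smallest change (0.26, edgeR adjusted p = 0.774). Several of these genes belong to families of close copies, so the split of reads between copies is uncertain.

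Of 14 genes of growth hormone signalling 13 were tested, 5 passed as lower (17.8% of all genes tested did) and none as higher, with a median log2 fold change of -0.48. Ghr, the growth hormone receptor, dropped from 763 ± 44.4 CPM in PF (SD, n = 5) to 239 ± 109 CPM in AF livers (SD, n = 7), and its fitted change was -1.67 on the log2 scale (SE 0.277, edgeR adjusted p = 0.000694). The transcription factor gene Onecut1 (-1.62, edgeR adjusted p = 0.000676), the genes Igfals (-1.07, edgeR adjusted p = 0.00958) and Igf1 (-0.79, edgeR adjusted p = 0.00201), which encode parts of the circulating growth factor complex, also fell. Stat5b, the signal transducer, passed narrowly (-0.38, edgeR adjusted p = 0.0324) and lost that call when any of PF replicates 1, 2 or 5 or AF replicates 1, 3, 4 or 5 was left out. Jak2, the receptor's kinase, had the smallest change (0.03, edgeR adjusted p = 0.874). Scaled to upper quartiles or to library totals alone, 4 genes of this list passed as lower and 1 as higher. Of all 14168 genes tested, 2161 passed as lower and 3588 as higher with upper quartiles. With library totals these were 938 and 6458.

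Of 28 genes of steroid reduction and interconversion, 26 were in the table and 23 tested. Of these 12 passed as lower (17.8% of all genes tested did), 1 as higher (22% of all genes tested did) and 10 did not pass, and the median log2 fold change was -0.66. Sult2a8, a bile acid sulfotransferase of male liver, dropped from 828 ± 111 CPM in PF (SD, n = 5) to 39.2 ± 46.5 CPM in AF livers (SD, n = 7), and its fitted change was -4.40 on the log2 scale (SE 1.02, edgeR adjusted p = 0.00491). Hsd17b7, which like Nsdhl takes part in cholesterol synthesis, fell by 2.70 on the log2 scale (edgeR adjusted p = 7.66e-07). Srd5a1, a steroid 5-alpha-reductase that uses the 3-ketosteroids the oxidising Hsd3b enzymes make, fell by 2.19 (edgeR adjusted p = 0.000414), and the oxysterol hydroxylase gene Cyp7b1 also fell by 2.19 (edgeR adjusted p = 0.00069). Hsd17b13, a lipid droplet protein, was the 1 gene that passed as higher (0.92, edgeR adjusted p = 0.00128), and Hsd17b4 had the smallest change (-0.05, edgeR adjusted p = 0.828). Scaled to library totals alone, 10 genes of this list passed as lower and 7 as higher. Of all 14168 genes tested, 938 then passed as lower and 6458 as higher.

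Of 18 other genes of steroid hormone synthesis 10 were tested, 3 passed as lower (17.8% of all genes tested did) and none as higher, and the median log2 fold change was 0.01. Fdx1, the ferredoxin that feeds electrons to mitochondrial P450 enzymes, fell by 0.95 (edgeR adjusted p = 0.00187) and the nuclear receptor gene Nr5a2 by 0.69 (edgeR adjusted p = 7.45e-05) on the log2 scale. The third was Cyp21a1 (-1.42, edgeR adjusted p = 0.0184), named after its value was seen, with a mean of only 1.77 CPM in PF. Fdxr, the reductase of Fdx1, had the smallest change (-0.02, edgeR adjusted p = 0.93). Scaled to library totals alone, 3 passed as lower and 3 as higher, beside 938 and 6458 of all 14168 genes tested.

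Of 11 coding genes not named Hsd3b in the cluster or within 500 kb of it, called flanking here, 6 were tested. Those not tested include Gm4450 and Gm10681, near copies of Hsd3b4 with 0 reads. Of the 6, 1 passed as lower, against 17.8% of all genes tested. It was Wars2, a mitochondrial tryptophanyl-tRNA synthetase, with a log2 fold change of -0.32 (edgeR adjusted p = 0.0341). That call was lost when any of PF replicates 1, 3 or 4 or AF replicates 3, 4, 5 or 7 was left out. Zfp697, which spans most of the cluster, had a log2 fold change of 0.45 (SE 0.244, edgeR adjusted p = 0.152). The nearest tested genes outside were Phgdh, of serine synthesis (1.43, edgeR adjusted p = 0.149), on the Hsd3b4 side and Hao2, a peroxisomal hydroxyacid oxidase that is also on the female-biased list (2.17, edgeR adjusted p = 0.0634), on the Hsd3b1 side. Hao2 passed without PF replicate 3, AF replicate 4 or AF replicate 6. Notch2 had the smallest change (-0.03, edgeR adjusted p = 0.81). Scaled to library totals alone, 3 flanking genes passed as higher and none as lower. Under that scaling 6458 of all 14168 genes tested passed as higher and 938 as lower.

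**Figure D5:**
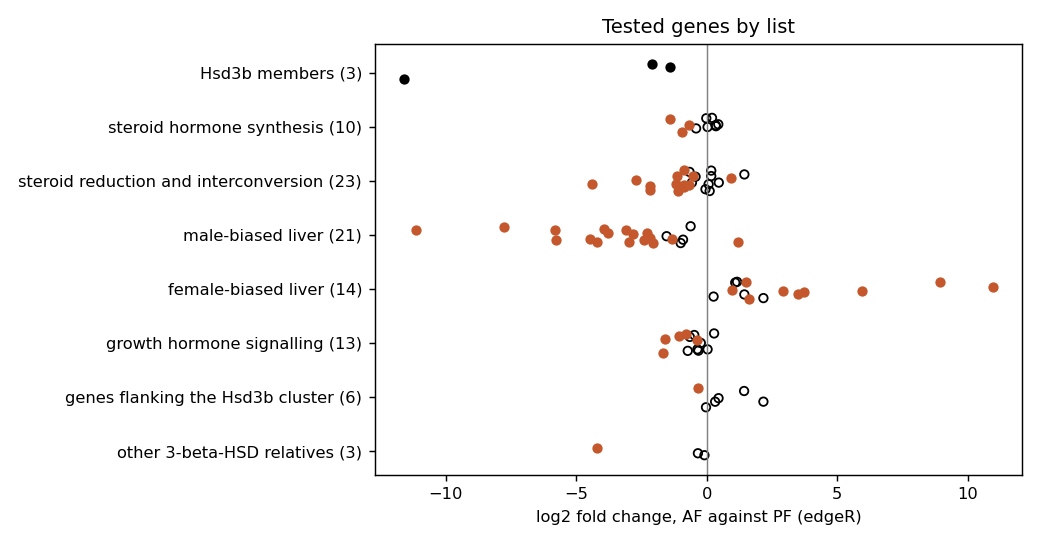
Log2 fold change of AF against PF livers for each tested gene, by list, with the number of tested genes in parentheses. Black points are the 3 Hsd3b members, which were not tested here, orange points passed an edgeR adjusted p of 0.05 and open circles did not. Most male-biased genes lie left of 0, most female-biased genes lie right of 0, and Hsd3b5 lies at -11.60.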

How the data were processed

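RNA of 12 mouse livers (5 PF, 7 AF) was extracted with TRIzol, enriched with oligo(dT) and made into libraries with a stranded TruSeq kit. Raw read counts for each Ensembl ID were deposited by the authors, with FastQC 0.10.1, TopHat2 2.0.13, HTSeq 0.10.0 and GRCm38 in the submitters' processing notes. The annotation release, strand setting and handling of reads with several matches are not given in the sources used here. Of 54232 IDs, 54165 were named through GENCODE M21. Gene positions, lengths and transcripts come from that release, and promoter windows from RefSeq (GRCm38.p6). The members and gene lists were chosen with earlier results of these data known, the lists from general knowledge of liver and steroid biology.

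Counts were filtered with filterByExpr by group (14168 genes kept), scaled by TMM and fitted with edgeR 4.0.16 (R 4.3.3) by quasi-likelihood, with no covariates and Benjamini-Hochberg adjustment over all genes tested at 0.05. The study's own test needs reads, so this 2-group fit replaced it. DESeq2 1.42.0, limma-voom (limma 3.58.1), other scalings and filters, a replicate block and leaving out each library were alternatives. Members got no p in the contrast of AF with PF livers. In a simulation of AF against PF over 14168 genes, 159 of the 200 genes given a change were found by edgeR, beside 7 false calls. Those changes were drawn evenly up and down, whereas 39.8% of genes passed in the data. The simulation therefore does not gauge errors under so broad a shift. The closest libraries within a group differed by 21.1 times counting noise per gene, so none was counted as a repeat. Whether mice shared a cage or a day is not stated. Named genes were, for each list, up to 4 past the threshold with the largest absolute log2 fold change and mean log2 CPM of at least 1, plus the tested gene with the smallest change, the nearest flanking genes, the 5 genes most like Hsd3b5 over livers and the 3 best correlated with Hsd3b3 over AF livers. Levels on a log scale used a pseudocount of 0.1 CPM. Exact permutation tests ran in SciPy 1.17.1.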

Additional observations from a re-analysis of the deposited data

Results flagged for a closer look

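Among groups of 4 to 10 livers, 15 sets of values were examined for a liver far from the others, and 2 stood beyond the limit. The figure of about 0.75 given by chance does not apply to sets tied at or near 0 reads, as both were. In such a set a single liver with reads passes the limit by construction, so no excess is read from the count. Hsd3b1, the adrenal and gonadal form, stood at 0.285 CPM in AF replicate 5, from 10 reads, while the other AF livers held 1 read or none. Hsd3b6 stood at 0.0313 CPM in AF replicate 4, from 1 read, with 0 in the other AF livers, and a single read sets no level.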

How the results depend on the processing

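Leaving out 1 library moved the log2 fold change between -2.28 and -2 for Hsd3b2, -1.50 and -1.32 for Hsd3b3 and -12.47 and -11.35 for Hsd3b5. The log2 ratio per kilobase ran from 0.62 to 1.06 for Hsd3b5 over Hsd3b3 and 1.66 to 2.25 for Hsd3b5 over Hsd3b2 in PF, and for Hsd3b3 over Hsd3b2 from 1.01 to 1.19 (PF) or 1.76 to 1.87 (AF). The correlation of Hsd3b2 and Hsd3b3 ran from 0.825 to 0.957. Calls among all genes ran from 4642 to 6497, flanking genes 0 to 2, relatives 1 to 2, growth hormone signalling 4 to 7, male-biased 16 to 20, female-biased 9 to 12, hormone synthesis 3 to 4 and steroid reduction 11 to 14.

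Library totals without scaling factors moved the median log2 fold change of all genes from 0.04 to 0.40 and the split of all calls from 3116 higher and 2519 lower to 6458 and 938, since TMM factors were 0.832 to 0.901 for PF but 0.88 to 1.36 for AF. With library totals Hsd3b3 changed by -1.07, hormone synthesis had 6 calls and flanking genes 3. Flanking genes, with 1 call, had 0 under upper-quartile scaling, 0 with a filter at 1 count and 2 with DESeq2. Relatives had 2 calls with limma-voom quality weights. Relative to albumin counts Hsd3b2 changed by -1.52 and Hsd3b3 by -0.81. These changes are smaller by construction, since albumin itself had a log2 fold change of -0.60. Other lengths changed the ratios by construction. With the median coding transcript the log2 ratio in PF was -1.36 for Hsd3b5 over Hsd3b3, reversed, 0.83 for Hsd3b5 over Hsd3b2 and 2.20 for Hsd3b3 over Hsd3b2, which was 2.90 in AF livers. With the longest transcript the latter was 1.52 in PF and 2.23 in AF livers. The causes of the other shifts were not tested.

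Replicate numbers did not pair the livers: deviations of same-numbered livers correlated at -0.0749 to 0.117, and only replicate 3 of PF was closest to its own number. With the replicate block all calls numbered 6335, growth hormone signalling 8, flanking genes 3 and relatives 2, and Hsd3b5 changed by -13.36. Replicates 6 and 7 exist only in AF, so under the block these livers add nothing to the estimated difference. They held 4 and 2 of the 7 AF reads of Hsd3b5. Of the values without 1 library 153 stayed within their limits and 8 moved, and of the other alternatives 83 stayed, 18 moved and 1 reversed. For the 4 AF livers with 0 Hsd3b5 reads, depth limits the level to the floor of 3 counts.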

Other observations

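Over the 7 AF livers the genes whose levels followed Hsd3b3 most closely, of 11365 ranked, were Mospd2 (Pearson's r = 0.973), 6430548M08Rik (r = 0.954) and Adgb (r = 0.953). These are the highest of many values from the same libraries and are given without a test. Mospd2, a protein that tethers membranes to the endoplasmic reticulum, fell with Hsd3b3 in AF livers (log2 fold change -0.84, edgeR adjusted p = 0.000107), while 6430548M08Rik rose (0.75, edgeR adjusted p = 0.00153) and Adgb, an androglobin gene, stood at 0.73 (edgeR adjusted p = 0.118). So 6430548M08Rik followed Hsd3b3 from liver to liver within the AF group but differed from it in the direction of the change between groups.

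The Hsd3b cluster also holds 10 annotated pseudogenes. Of these 7 had 0 reads in all 12 livers, and the other 3 held 5 reads in total.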
